A study of Arabidopsis thaliana with 9 samples.

Results

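The SWEET genes of Arabidopsis thaliana encode membrane proteins that let sugars pass down their concentration gradient. The group described here was chosen by name, with earlier results of these data known. It holds the sucrose exporters SWEET9 to SWEET15 and the vacuolar members SWEET2, SWEET16 and SWEET17, 10 genes in all. Each entered where a probe set on the array was assigned to that gene alone. Of these 10 genes, 9 were measured, out of 16550 genes tested, and 1, SWEET12, was not analysed here. The 9 were SWEET2 (AT3G14770), SWEET9 (AT2G39060), SWEET10 (AT5G50790), SWEET11 (AT3G48740), SWEET13 (AT5G50800), SWEET14 (AT4G25010), SWEET15 (AT5G13170, also called SAG29), SWEET16 (AT3G16690) and SWEET17 (AT4G15920). SWEET10 and SWEET13 are next to each other in the order of protein-coding genes on chromosome 5, and every one of the 9 genes had 1 probe set.

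SWEET proteins are uniporters, which need no energy source and work in either direction. The exporters SWEET9 to SWEET15 sit in the plasma membrane and release sucrose from cells: into the cell wall space beside the phloem, where SUC2-type proton symporters load it for transport, into nectar, or towards the embryo in a seed. SWEET2, SWEET16 and SWEET17 sit in the vacuolar membrane and exchange hexoses, and for SWEET16 also sucrose, between vacuole and cytosol. In roots, which import sucrose from the shoot, SWEET2 and SWEET17 are known for vacuolar glucose and fructose storage.

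All seedlings were 10 days old, of the Wassilewskija background, and carried 14-3-3κ fused to GFP under the CaMV35S promoter of cauliflower mosaic virus, so the ground group carried the transgene too and no group without it was compared. They were grown in continuous light on medium that contained sucrose, and then enclosed in 3 fixation tubes, of which a pair went on the second flight of the series with an F-104 Starfighter jet. Both flight tubes underwent a climb at 4 g of 30 s and then about 10 s of microgravity. Roots of the first-actuated tube met the fixative, RNAlater, straight after this microgravity. Those of the last-actuated tube met it once level flight had lasted about 1.5 min. The ground tube was held by a person on the ground and actuated during the flight. Whole roots of each tube were divided into 3 replicates and hybridized to 9 AraGene 1.0 ST arrays. Since each condition had 1 tube, a difference between tubes and one between conditions cannot be told apart. The p-values rest on the spread among roots of the same tube.

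Levels are log2 expression values, made by the authors with robust multi-array averaging (RMA), and the number of arrays limits their precision. The median of the gene means was 2.15 and the lower quartile 1.41, and no detection calls were available, so levels near or below these values may lie at background. Ground replicates correlated with each other at 0.976 to 0.984 across genes, against 0.984 to 0.989 for last-actuated and 0.990 to 0.991 for first-actuated replicates. Of the marker lists, 2 of 7 shoot genes and 2 of 4 root hair genes were measured, and none of the 6 phloem, 4 xylem, 3 endodermis, 2 root cap or 2 senescence genes. The light-harvesting gene LHCB4.1, which marks green tissue, lay between 4.71 and 4.92 on the 9 arrays and the Rubisco activase gene RCA between 6.38 and 6.86, so transcripts of both genes were measured in every root sample. In whole roots, fewer cells of a type and less RNA per cell cannot be told apart.

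SWEET11 was the one SWEET gene that changed past the threshold, an adjusted p under 0.05. It fell in last-actuated against ground roots, where 0.912% of all genes tested were called. SWEET11, with its close relative SWEET12, releases sucrose from phloem parenchyma cells in leaves. Its level was 6.79, 6.87 and 6.91 in the last-actuated roots, 7.25, 7.48 and 7.36 in the first-actuated roots, and 7.32, 7.89 and 7.68 in the ground roots. The last-actuated values lay below all values of both other tubes, while the first-actuated and ground values overlapped. The mean was 6.86 ± 0.060 in last-actuated and 7.63 ± 0.29 in ground roots (SD, n = 3 each), a log2 change of -0.77 with a standard error of 0.14 (limma, adjusted p = 0.0393), and 3 of 3 last-actuated arrays lay below every ground array. SWEET11 also differed among the 3 tubes by the moderated F test of limma (adjusted p = 0.0307).

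Right after microgravity SWEET11 stood at 7.36 ± 0.12, against 7.63 ± 0.29 on the ground (SD, n = 3 each), and that log2 change of -0.27 did not pass (limma, adjusted p = 0.394). Between the flight tubes, the last-actuated roots were lower than the first-actuated roots by a log2 change of -0.50, with a 95% confidence interval of -0.82 to -0.19 (limma, adjusted p = 0.121). By mean level alone, the order of the 3 tubes was last-actuated below first-actuated below ground. Of the 3 comparisons only the one between the ends passed the test.

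The SWEET11 call against ground held in 2 of the 9 fits that each left out 1 array, those without ground replicate 1 (adjusted p = 0.0143) or ground replicate 2 (0.0387). In the other 7 fits the log2 change was -0.74 to -0.80 and the adjusted p was 0.0707 to 0.146. It was 0.186 when only the last-actuated and ground arrays entered the fit. RCA, like SWEET11, was lower in last-actuated roots than in both other tubes. Its level was 6.38, 6.48 and 6.41 in last-actuated and 6.56, 6.74 and 6.72 in first-actuated roots. In ground roots it was 6.86, 6.49 and 6.55. The log2 change of -0.21 between last-actuated and ground roots did not pass (limma, adjusted p = 0.524). In first-actuated against ground roots RCA changed by 0.036 and SWEET11 by -0.27 on the log2 scale. Within the ground tube the order differed: replicate 2, with the highest SWEET11 level, had the lowest RCA level. LHCB4.1 had a log2 change of 0.011. The summed linear level of both shoot genes was 114 to 118 in last-actuated, 120 to 136 in first-actuated and 119 to 146 in ground roots, and its part in the SWEET11 result was not tested. Binding of SWEET12 transcripts by the SWEET11 probe set was not tested either.

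**Figure D1:**
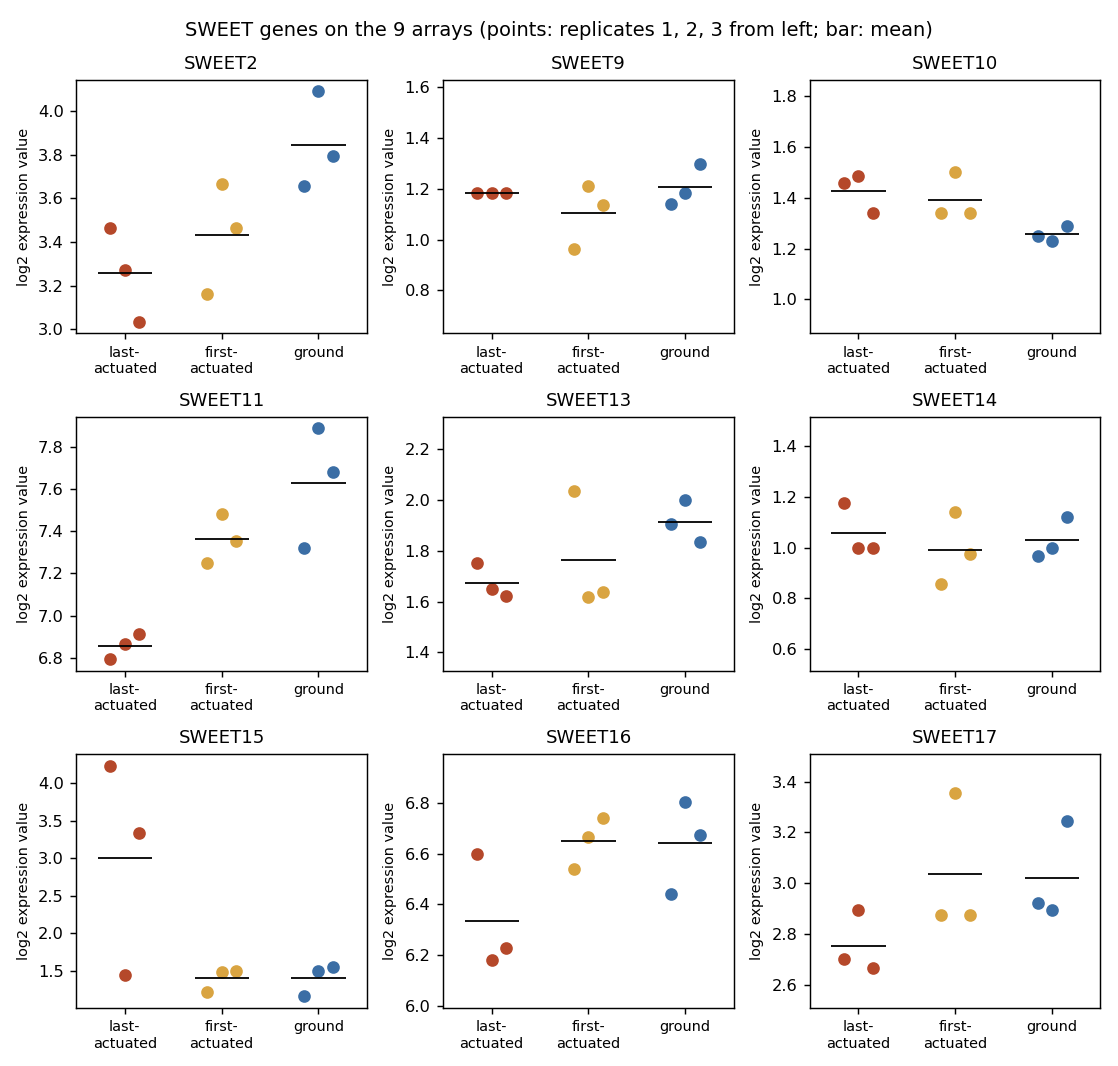
Log2 expression values of the 9 measured SWEET genes (vertical axes, each gene on its own scale) on the 3 arrays of the last-actuated, first-actuated and ground tubes. Points are replicates and bars group means. SWEET11 in last-actuated roots, at 6.79 to 6.91, lies below every array of the other tubes, and SWEET15 is raised in last-actuated replicates 1 and 3 alone.

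SWEET15 showed the widest differences between replicates. It encodes a sucrose exporter known from senescing leaves, from the seed coat and endosperm that feed the embryo, and from roots under salt or osmotic stress. Its level was 4.24, 1.44 and 3.34 in last-actuated replicates 1, 2 and 3, 1.22, 1.48 and 1.50 in first-actuated roots, and 1.16, 1.50 and 1.55 in ground roots. Replicates 1 and 3 of the last-actuated tube were thus above all other arrays, while replicate 2 lay among the first-actuated and ground values, all of which were below the median of the gene means.

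With an SD of 1.43 in the last-actuated roots (n = 3), the log2 change of 1.60 against ground had a 95% confidence interval of 0.39 to 2.80 and did not pass (limma, adjusted p = 0.253). The last-actuated level was higher than the first-actuated level by the same 1.60 (adjusted p = 0.198). Without last-actuated replicate 2 the changes became 2.38 against ground and 2.38 against first-actuated roots, with adjusted p-values of 0.00781 and 0.00977. Without any 1 other array the log2 change against ground was 0.98 to 1.67 and the adjusted p was 0.271 to 0.496. The first-actuated and ground means, 1.40 and 1.41, gave a log2 change of -0.0039 with an interval of -1.21 to 1.20. The senescence markers were not among the measured genes.

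**Figure D2:**
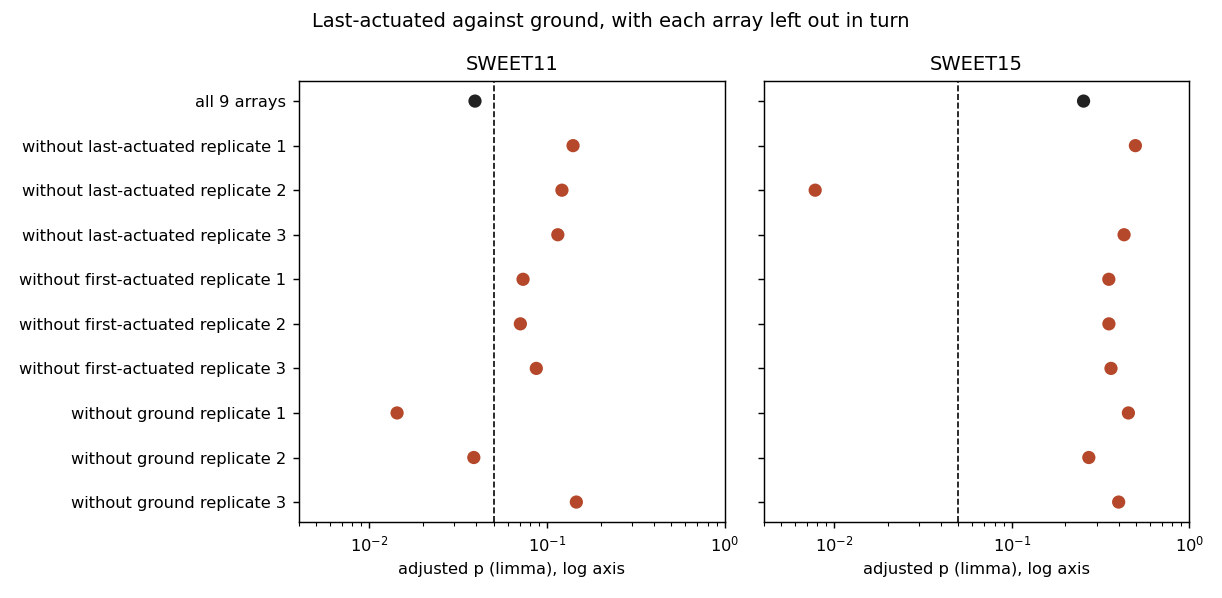
Adjusted p of SWEET11 and SWEET15 in the last-actuated against ground comparison (horizontal log axis), with all 9 arrays (black) and without each array in turn (red). The dashed line is the threshold of 0.05. SWEET11 is past it with all arrays and without ground replicate 1 or 2, and SWEET15 only without last-actuated replicate 2.

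The other exporters had low levels in all tubes, below the median of the gene means. SWEET13, known for sucrose export in leaves and anthers and, with SWEET14, for gibberellin transport, stood at 1.75, 1.65 and 1.62 in last-actuated, 2.04, 1.62 and 1.64 in first-actuated and 1.90, 2.00 and 1.84 in ground roots. Its last-actuated values lay below all ground values and overlapped with the first-actuated ones, and the log2 change of -0.24 against ground did not pass (limma, adjusted p = 0.495).

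SWEET10, a sucrose transporter gene known for its induction at the floral transition, stood at 1.46, 1.49 and 1.34 in last-actuated, 1.34, 1.50 and 1.34 in first-actuated and 1.25, 1.23 and 1.29 in ground roots. The identical value 1.34 on 3 arrays, last-actuated replicate 3 and first-actuated replicates 1 and 3, was the lowest of each flight tube. Both flight tubes lay above every ground value, by log2 changes of 0.17 and 0.14 (limma, adjusted p = 0.525 and 0.549), on a scale where the whole range of the gene was below the median level. SWEET10 and its neighbour SWEET13 thus had changes of opposite sign in both flight tubes, and none of these passed.

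SWEET9, which exports sucrose in nectaries, had the identical value 1.18 on 3 of 3 last-actuated arrays and on ground replicate 2, and lay between 0.96 and 1.30 on the other arrays. SWEET14, the close relative of SWEET13, ranged from 1.00 to 1.18 in last-actuated, 0.86 to 1.14 in first-actuated and 0.97 to 1.12 in ground roots, with the value 1.00 repeated on 3 arrays. Both genes lay below the lower quartile of the gene means, as did SWEET10. Their log2 changes were between -0.10 and 0.079 in the 3 comparisons, and none passed.

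The vacuolar genes were lower in last-actuated roots than in both other tubes by their means, and none of these differences passed. SWEET2, a vacuolar glucose transporter gene known to limit the loss of sugar from roots, stood at 3.47, 3.27 and 3.03 in last-actuated, 3.16, 3.67 and 3.47 in first-actuated and 3.66, 4.09 and 3.79 in ground roots. The last-actuated values lay below all ground values, and first-actuated replicate 2 lay just inside the ground range. The log2 change against ground was -0.59 with a 95% interval of -0.97 to -0.21 in the last-actuated (limma, adjusted p = 0.176) and -0.41 with an interval of -0.79 to -0.038 in the first-actuated roots (adjusted p = 0.241).

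SWEET16, whose product carries glucose, fructose and sucrose across the vacuolar membrane, stood at 6.60, 6.18 and 6.23 in last-actuated, 6.54, 6.67 and 6.74 in first-actuated and 6.44, 6.81 and 6.67 in ground roots. Last-actuated replicates 2 and 3 lay below all arrays of the other tubes and replicate 1 lay among them. The log2 change was -0.31 against first-actuated (limma, adjusted p = 0.379) and -0.30 against ground roots (0.430).

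SWEET17, a vacuolar fructose transporter gene, stood at 2.70, 2.89 and 2.66 in last-actuated, 2.88, 3.35 and 2.88 in first-actuated and 2.92, 2.90 and 3.24 in ground roots. The last-actuated values lay below all ground values by a narrow margin, with a log2 change of -0.27 (limma, adjusted p = 0.547), and overlapped with the first-actuated ones (-0.28, 0.500). Of SWEET16 and SWEET17, the first-actuated and ground means differed by 0.0087 and 0.015 on the log2 scale, within intervals of -0.31 to 0.32 and -0.33 to 0.36.

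**Figure D3:**
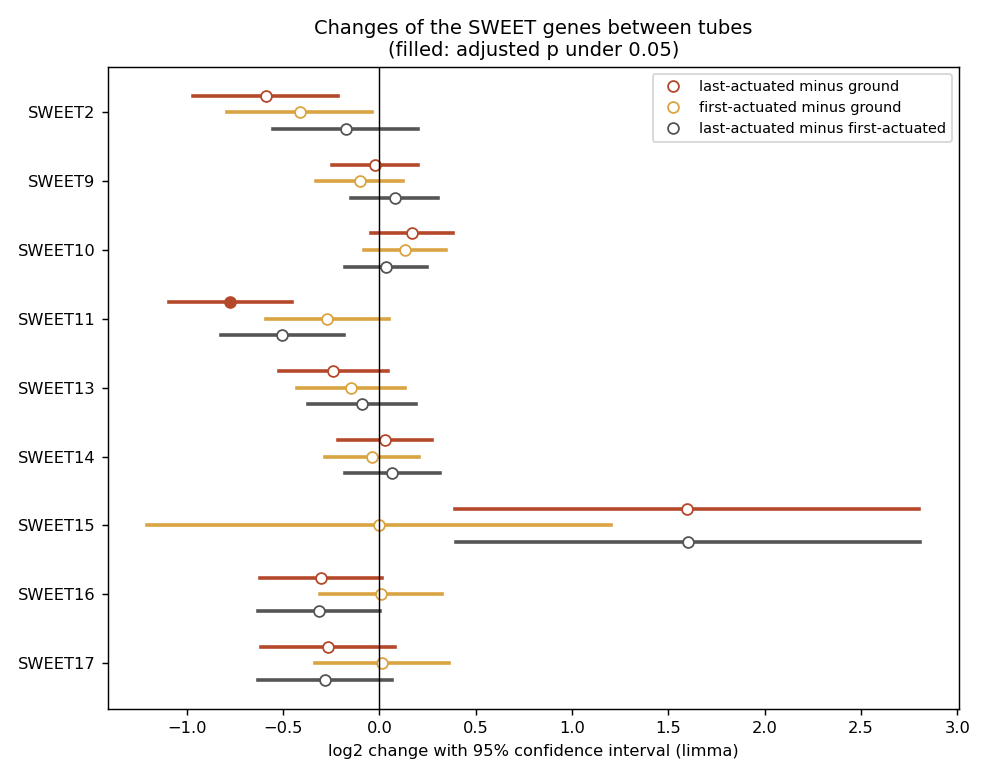
Log2 changes of the 9 SWEET genes between tubes (horizontal axis) with the 95% confidence interval of limma, which is not adjusted for multiple tests. Filled points passed an adjusted p of 0.05, which only SWEET11 did, in last-actuated against ground roots (-0.77). The intervals of SWEET15 are the widest.

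Counted together against ground, 1 of 9 members was called in last-actuated roots, where 0.912% of all genes tested were called, and 0 of 9 in first-actuated roots, where 4.69% were. Between last-actuated and first-actuated roots 0 of 9 were called, against 2.24% of all genes. By limma, 3, 1 and 2 members had an unadjusted p under 0.05 in these comparisons, where 12.4%, 16.9% and 13.4% of all genes did. The moderated F test called 1 of 9, against 4.45% of all genes. With so few members called, these shares say little beyond SWEET11 itself.

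By position alone, last-actuated and ground values did not overlap for 5 of 9 members, against 12.7% of all genes. For 4 of these 5 (SWEET2, SWEET11, SWEET13 and SWEET17) the last-actuated roots were lower, where 5.4% of all genes were. For SWEET10 they were higher, where 7.26% were. The nearest SWEET17 values were 2.8945 in last-actuated and 2.8957 in ground replicate 2. SWEET10 and SWEET13 had gene means of 1.36 and 1.78, below the median of 2.15, where levels may lie at background. First-actuated and ground values did not overlap for 1 member, SWEET10, against 18.4% of all genes, and last-actuated and first-actuated values for 1, SWEET11, against 18.1%. The median log2 change of the 9 members was -0.24 in last-actuated against ground roots, beside 0.026 for all genes, and -0.038 in first-actuated against ground roots, beside 0.0098.

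By role, 3 of 3 vacuolar genes had a negative log2 change in last-actuated against ground roots, with a median of -0.30, and 3 of 3 in last-actuated against first-actuated roots, with a median of -0.28, where 44.3% and 47.3% of all genes had a negative change. Of the 6 exporters 3 and 2 had a negative change, with medians of 0.0026 and 0.051. In first-actuated against ground roots 1 of 3 vacuolar genes (median 0.0087) and 5 of 6 exporters (median -0.071) had a negative change, against 47.6% of all genes. The 95% intervals lay within -1 to 1 on the log2 scale for 7 of 9 members in last-actuated against ground roots, and for 8 of 9 in each of the other comparisons. The exceptions were SWEET15 in each comparison and SWEET11 in last-actuated against ground roots. For low genes such as SWEET9 and SWEET14 this bounds the change of the signal, part of which may be background.

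The genes whose levels followed SWEET11 most closely over the 9 arrays were AT5G10780 (Pearson r = 0.967), AT1G20670 (0.963) and AT2G20550 (0.958), chosen as the highest of all genes tested. They had smaller log2 changes than SWEET11 in last-actuated against ground roots, of -0.22, -0.34 and -0.61, and of -0.12, -0.21 and -0.40 in last-actuated against first-actuated roots. These values describe the 9 arrays, which share tubes and normalization.

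The 7 SWEET genes outside the group were all measured, all had gene means below the median, and none was called by limma in last-actuated against first-actuated, last-actuated against ground or first-actuated against ground roots, where 2.24%, 0.912% and 4.69% of all genes were. An unadjusted p under 0.05 was found for 0, 2 and 1 of the 7, against 13.4%, 12.4% and 16.9% of all genes. SWEET1, which encodes a plasma membrane glucose uniporter, stood at 1.82, 1.51 and 1.74 in last-actuated, 1.74, 1.39 and 1.84 in first-actuated and 3.39, 1.61 and 3.11 in ground replicates 1, 2 and 3. Ground replicates 1 and 3 were above all other arrays and ground replicate 2 was not. The log2 changes of -1.01 and -1.05 in last-actuated and first-actuated roots against ground did not pass (limma, adjusted p = 0.304 and 0.176). Without ground replicate 2 they were -1.56 and -1.60 and passed (adjusted p = 0.00156 and 6.72e-04). That was 1 of the 9 fits that each left out 1 array. In the others neither change passed, with an adjusted p of up to 0.570 and 0.438 (limma).

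The same ground arrays were high in chloroplast-encoded transcripts, with deviations from the gene's own mean that had a median, over the 63 measured genes, of 1.22, -0.0050 and 0.82 in ground replicates 1, 2 and 3, while the flight arrays lay between -0.48 and -0.15. The part of these transcripts' source in the SWEET1 levels was not tested. SWEET3 stood at 1.86, 1.68 and 1.79 in last-actuated, 1.71, 2.01 and 1.79 in first-actuated and 1.83, 2.24 and 2.25 in ground roots, and its log2 change of -0.33 in last-actuated against ground roots did not pass (limma, adjusted p = 0.368).

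SWEET4, SWEET5, SWEET6, SWEET7 and SWEET8 lay between 0.96 and 1.80 on the 9 arrays, and each had 1 value repeated, on 5, 6, 3, 4 and 4 arrays in that order. SWEET5 and SWEET8 are best known from pollen and anthers. SWEET8 reached its highest value, 1.76, in ground replicate 1, where SWEET1 was also highest.

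**Figure D4:**
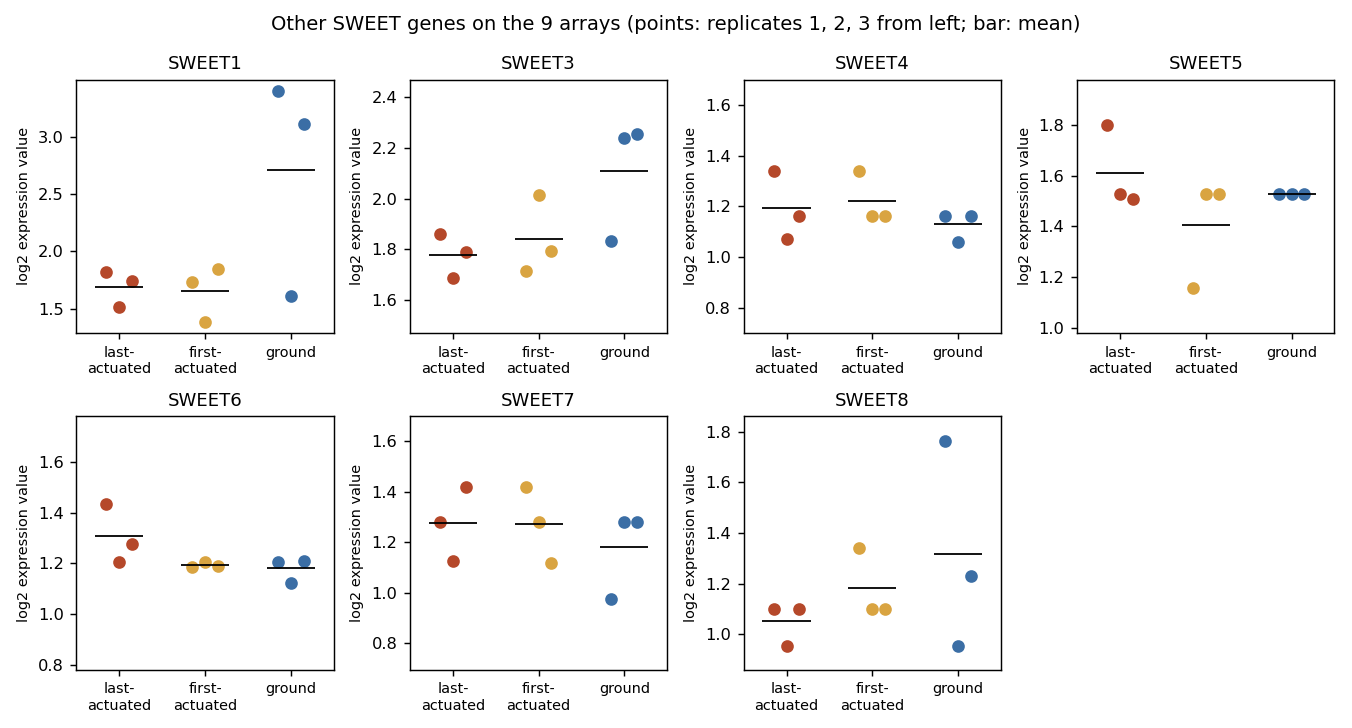
Log2 expression values of the 7 other SWEET genes (vertical axes, each gene on its own scale) on the 3 arrays of each tube. Points are replicates and bars group means. SWEET1 is raised in ground replicates 1 and 3, at 3.39 and 3.11, and not in ground replicate 2.

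Among 43 other listed sugar transporters 11 were measured. In first-actuated against ground roots 1 of the 11 was called by limma, where 4.69% of all genes were. In last-actuated against ground and in last-actuated against first-actuated roots 0 were called, where 0.912% and 2.24% of all genes were. An unadjusted p under 0.05 was found for 1 and 2 of the 11 there, against 12.4% and 13.4% of all genes. In first-actuated against ground roots it was found for 1 of the 11, against 16.9%. SFP1, a sugar-porter family gene of the ERD6 group, rose in first-actuated roots to 5.78, 5.76 and 5.81, against 4.53, 5.42 and 5.06 in ground roots, a log2 change of 0.78 (limma, adjusted p = 0.0449). With the replicate number as a block the adjusted p was 0.0521, and it was 0.144 when only the first-actuated and ground arrays entered the fit. The call held without ground replicate 2 (0.00484) and was lost without any 1 other array (0.0605 to 0.150). In last-actuated roots SFP1 stood at 5.36, 5.41 and 5.24, all below the first-actuated values, with a log2 change of 0.33 against ground (adjusted p = 0.531) and -0.45 against first-actuated roots (0.327). Values of the flight tubes did not overlap, in either direction, for 18.1% of all genes. The medians of the 11 genes were 0.040 in last-actuated and 0.11 in first-actuated roots against ground, beside 0.026 and 0.0098 for all genes. In these comparisons 4 and 1 of the 11 had a negative log2 change, against 44.3% and 47.6% of all genes. In last-actuated against first-actuated roots 9 of the 11 had one, with a median of -0.062, against 47.3% of all genes.

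Of 29 listed genes of sucrose and hexose metabolism 3 were measured and none was called by limma in last-actuated against first-actuated, last-actuated against ground or first-actuated against ground roots, where 2.24%, 0.912% and 4.69% of all genes were. In these comparisons 2, 0 and 0 of the 3 had an unadjusted p under 0.05, against 13.4%, 12.4% and 16.9% of all genes. CWINV6, which encodes an enzyme of the cell wall invertase family active on fructans, stood at 6.08, 6.78 and 6.73 in last-actuated, 5.78, 5.91 and 6.00 in first-actuated and 5.57, 6.35 and 6.31 in ground roots. The last-actuated values lay above all first-actuated ones, with a log2 change of 0.63 (limma, adjusted p = 0.256). Values of these tubes did not overlap, in either direction, for 18.1% of all genes. Of the 2 root hair markers, the expansin gene EXPA18 was called higher in first-actuated than in ground roots (0.96, adjusted p = 0.0203) and lower in last-actuated than in first-actuated roots (-0.90, 0.0454). EXPA7, also an expansin gene, had changes of the opposite sign in both comparisons and was not called (limma, -0.63, adjusted p = 0.0685, and 0.44, 0.283). Its groups did not overlap in either comparison, as held for 18.4% and 18.1% of all genes. In last-actuated against ground roots, where SWEET11 fell, the log2 changes of EXPA18 and EXPA7 were 0.059 and -0.20.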

How the data were processed

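Whole-root RNA of 9 samples was hybridized to 1-colour arrays. The deposited values are log2 expression values that the authors made with RMA, and the submitters' processing notes name oligo and limma in R 4.0.0 and the TAIR10 build. Further settings: not given in the sources used here. Of 38408 probe sets, 16722 were paired with 1 gene, 759 with several and 20927 with none in the naming table, and 16574 of the 16722 matched the gene table. They gave 16550 genes. For the 146 genes with several probe sets, the one with the highest mean was used.

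The 3 tubes entered 1 model in limma 3.58.1 (R 4.3.3), with empirical Bayes moderation, no trend, 6 residual degrees of freedom and 3.89 from the prior, Benjamini-Hochberg adjustment over all genes and a threshold of 0.05 (Python 3.11.15, pandas 2.3.3 and matplotlib 3.10.9 for joins and figures). The fit was tested on simulated data with known changes and independent noise. These data held no tube effect, so the test does not bear on having 1 tube per condition. The members and lists were chosen with earlier results of these data known. Named genes are the measured SWEET genes, called members of the sugar lists or the smallest F-test p of a list without calls, and the 3 genes most like each called member. SWEET1 and SWEET3 were picked for a fuller account after their values were seen, as was RCA. Alternatives were cyclic loess, a filter on low levels, a variance trend, array weights, the replicate block, means over probe sets, 2-group fits and each array left out.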

Additional observations from a re-analysis of the deposited data

How the results depend on the processing

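The calls of SWEET11 and SFP1 were each lost in most fits that left out 1 array. Fitted on the 2 groups alone, SWEET11 was not called against ground (0 members called), and 1 member, SWEET11, was called between last-actuated and first-actuated roots (adjusted p = 0.0468), as was 1 other transporter, SFP1, whose call in first-actuated against ground roots was lost in such a fit (0 called, adjusted p = 0.144). The 2-group fits called 28 genes in last-actuated and 419 in first-actuated roots against ground, beside 151 and 776. Array weights called 597 genes between the flight tubes, beside 371. Over all genes together, samples with the same replicate number showed little pairing (correlations of deviations -0.11 to 0.070). Whether single genes were paired cannot be read from these correlations. The replicate block left SWEET11 called against ground (limma, adjusted p = 0.0382). So did cyclic loess, the filter on low levels, the variance trend, means over probe sets and array weights (0.00668 to 0.0388). The block left 0 other transporters called in first-actuated against ground roots, where SFP1 reached 0.0521. Cyclic loess moved the median change of all genes by under 0.1. It gave 2 members without overlap in each of last-actuated against first-actuated and first-actuated against ground roots, beside 1 and 1. That count was checked after seeing the data, and the share of all genes was not computed for it.

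Leaving out each array, the count of genes called ranged from 100 to 495 between the flight tubes, from 53 to 508 in last-actuated and from 384 to 1253 in first-actuated roots against ground, the highest count against ground being without ground replicate 2 each time. The count of SWEET members called ranged from 0 to 1 between the flight tubes, in last-actuated roots against ground and in the F test. Between the flight tubes the 1 was SWEET15 without last-actuated replicate 2 and SWEET11 without ground replicate 1; against ground the 1 left without last-actuated replicate 2 was SWEET15, not SWEET11. Other transporters called in first-actuated against ground roots ranged from 0 to 1. Members without overlap ranged from 1 to 3 between the flight tubes and from 1 to 4 in first-actuated against ground roots. Leaving out an array can only keep or raise such a count, so these ranges do not test it. No share of all genes was computed beside them. The signs that turned belonged to uncalled changes near 0. SWEET14 in last-actuated against ground roots was -0.0037 with cyclic loess, -0.010 with array weights and -0.029 to 0.074 over the arrays left out. In first-actuated against ground roots SWEET16 was -0.054 with cyclic loess and -0.091 to 0.091 over the arrays left out, SWEET17 -0.038 with array weights and -0.14 to 0.13, SWEET14 -0.11 to 0.029 and SWEET15 -0.13 to 0.087. Between the flight tubes SWEET13 ranged from -0.16 to 0.044, SWEET1 from -0.097 to 0.13 and SWEET3 from -0.13 to 0.023, and in last-actuated against ground roots SWEET9 from -0.058 to 0.021. The causes of these shifts were not tested. The lack of detection calls limits what the low genes can show.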

Other observations

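Uneven patterns within tubes were looked at after the values were seen, as descriptions of single arrays. The level of GH9B15, which encodes a glycosyl hydrolase of the endoglucanase family, followed SWEET15 over the 9 arrays (Pearson r = 0.979). It stood at 6.06, 1.80 and 5.63 in last-actuated replicates 1, 2 and 3 and between 1.74 and 2.03 on all other arrays. The other genes most like SWEET15, AT2G34080 (r = 0.980) and AT4G03565 (0.976), varied less, from 1.73 to 2.32 and from 1.11 to 1.66. These correlations rest on the 2 arrays that stand apart.

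The level of AtLEA4-1, a late embryogenesis abundant protein gene known from maturing seeds and drought, followed SWEET1 (Pearson r = 0.989), at 6.40, 1.76 and 5.50 in ground replicates 1, 2 and 3 and between 1.59 and 2.15 in the flight roots. AT5G45950 did likewise (r = 0.986), at 5.59, 1.43 and 4.64 on the ground and between 1.25 and 1.77 in flight. UGT78D1, which encodes a flavonol rhamnosyltransferase, had the same order at a low level (r = 0.986), between 1.18 and 1.72 on the ground. These genes were chosen as the highest in r of all genes tested, and their correlations rest on ground replicates 1 and 3.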
